A study of Homo sapiens with 4 samples.

Results

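In PC3 cells with knockdown of METTL3, 10 early response factors were followed: 6 Krüppel-like factors (KLF2, KLF4, KLF5, KLF6, KLF9 and KLF10), 3 early growth response factors (EGR1, EGR2 and EGR3) and IER2. They were taken by gene name from the deposited table of 60544 genes, and all 10 were found, each as 1 row. PC3 is an established human prostate carcinoma line. METTL3 is the methyltransferase that places N6-methyladenosine on messenger RNA. The 2 libraries labelled shNC are the controls and the 2 labelled sh812 are read as the knockdown, since the series names METTL3 knockdown against control and sh812 is the one label besides shNC. Both arms carry a short hairpin label, both were grown in the same serum-containing medium, and sh812 is 1 hairpin label, so no second hairpin bears on any value here. The labels do not say whether the replicates are separate cultures, so p-values measure only the spread between these libraries, which may be technical.

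KLF proteins bind GC-rich and CACCC-type DNA through zinc fingers at their C-terminal end. Some members mainly activate and others mainly repress. EGR proteins bind GC-rich sites through zinc fingers of a related kind, and the NAB proteins bind EGR1 and EGR2 and hold them in check. EGR1, EGR3 and IER2 are textbook immediate early genes: growth factors, serum or stress lead through the ERK kinases to ELK factors and SRF at serum response elements, and transcription starts within minutes, without new protein synthesis. KLF2 and KLF4 can be induced through ERK5 and MEF2 factors, KLF9 by glucocorticoids and KLF10 by TGF-beta. Their messages are short-lived, and handling of a culture can itself induce them. In prostate epithelium KLF5 is a factor of basal and proliferating cells, and KLF6 has been studied as a tumour suppressor.

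The serum response element that gives EGR genes their quick induction can be read in the promoters. It holds a CArG box, here searched by that name on both strands in the 250 bases upstream of the RefSeq start (GRCh38.p14). Of the 10 genes, 8 had an entry, with 2 starts for KLF5 and 3 for EGR2, and KLF10 and EGR3 had none. EGR1 and the most downstream start of EGR2 are shown because EGR1 had 2 boxes and EGR2 had 1. Capitals mark the boxes.

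EGR1, chr5:138465229-138465478, plus strand: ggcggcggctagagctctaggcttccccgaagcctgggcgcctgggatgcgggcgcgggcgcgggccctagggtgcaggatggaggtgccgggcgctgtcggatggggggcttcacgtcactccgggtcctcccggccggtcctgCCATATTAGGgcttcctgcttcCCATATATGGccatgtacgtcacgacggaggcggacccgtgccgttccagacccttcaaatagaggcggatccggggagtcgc

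EGR2, chr10:62816367-62816616, minus strand: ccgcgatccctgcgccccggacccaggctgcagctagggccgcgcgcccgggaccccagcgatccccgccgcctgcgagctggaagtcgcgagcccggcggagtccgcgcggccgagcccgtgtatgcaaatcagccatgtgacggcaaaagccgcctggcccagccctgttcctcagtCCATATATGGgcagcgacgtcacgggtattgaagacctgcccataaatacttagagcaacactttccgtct

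The boxes began 105 and 83 bases before the start of EGR1 and 71 bases before that of EGR2. A CArG box was found in 1.16% of the 35116 promoters of this length. The windows of IER2, KLF2, KLF4, KLF5, KLF6, KLF9 and the other 2 EGR2 starts held none, which says only that these letters are not in this window. GC boxes, written GGGCGG and also searched on both strands, were found in 42.6% of all windows. KLF2, KLF4 and the second EGR2 start had 4 each, IER2 had 3, and KLF6, the second KLF5 start and the third EGR2 start had 2 each, with starts numbered by coordinate. EGR1, KLF9, the first KLF5 start and the EGR2 start shown had 0. The CRE motif TGACGTCA, found in 1.65% of windows, was in none of the windows of these genes. A match is a description of the sequence, not a measured binding site.

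Total counts were 31450648 to 37041330 per library. METTL3 was at 44.3 and 43.6 CPM in shNC and at 7.66 and 8.75 CPM in sh812, where CPM is a gene's count relative to the library total after TMM scaling (trimmed mean of M-values). Its log2 fold change, sh812 over shNC here and throughout, was -2.42 (adjusted p = 5.54e-14 in edgeR's quasi-likelihood test), so the targeted transcript was low in both libraries labelled sh812. Keratins 8, 18 and 19, VIM and EPCAM were all expressed. Their summed level was 1384 to 1550 CPM in shNC and 1471 to 1548 CPM in sh812, with EPCAM and KRT18 called higher. VIM went the other way, from 610 to 539 CPM without overlap, and did not pass (adjusted p = 0.0550 in edgeR). With limma-voom, 2 of these 5 genes were called higher and 1 lower. KLK3 was at 0 in all 4 libraries, and TMPRSS2 fell from 9.62 to 5.77 CPM (adjusted p = 0.00546 in edgeR). Of 8 markers of blood, endothelial and fibroblast cells, CD3E was at 0 and VWF at 0 to 2 counts. PTPRC, CD14 and DCN had 8 to 32 counts in a library, while COL1A1 was at 29.3 to 39.4 CPM. PECAM1 rose from 23.7 to 35.7 CPM (adjusted p = 0.000222 in edgeR) and COL3A1 fell from 3.44 to 1.20 CPM (adjusted p = 0.00131 in edgeR). The 8 markers summed to 66.3 and 68.6 CPM in shNC and to 64.6 and 75.6 CPM in sh812, and their part in the results was not tested. Among counts from 1 to 20, between 69.5% and 69.9% were even in each library, against 53.0% to 54.3% among counts over 100. Whether both reads of a pair were counted is not given in the sources used here, so a count of 2 may be 1 fragment.

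In these cells 5 of the early response factors were well expressed, EGR2 and KLF2 were low, and EGR1, KLF9 and EGR3 were nearly silent. Per kb of transcript, which allows genes to be compared, the mean level over the 4 libraries was 91.2 CPM per kb for KLF10, 43.3 for KLF5, 29.05 for IER2, 20.3 for KLF6 and 7.45 for KLF4. EGR2 and KLF2 followed at 2.32 and 2.30 CPM per kb. EGR1, KLF9 and EGR3 were at 0.0577, 0.0484 and 0.00608 CPM per kb. The 4 libraries of neighbouring genes in this order did not overlap from KLF10 down to EGR2, whereas EGR2 and KLF2 overlapped, as did EGR1 and KLF9. Against all 16802 genes tested, the mean level per kb of KLF10 was above 94.9% of genes, KLF5 above 88.8%, IER2 above 83.8%, KLF6 above 78.0% and KLF4 above 58.1%. KLF2 and EGR2 were above 37.3% and 37.5%. KLF10 alone made up 43.5% of the summed CPM of the 10 genes on average, and KLF5 made up 23.8%.

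**Figure D1:**
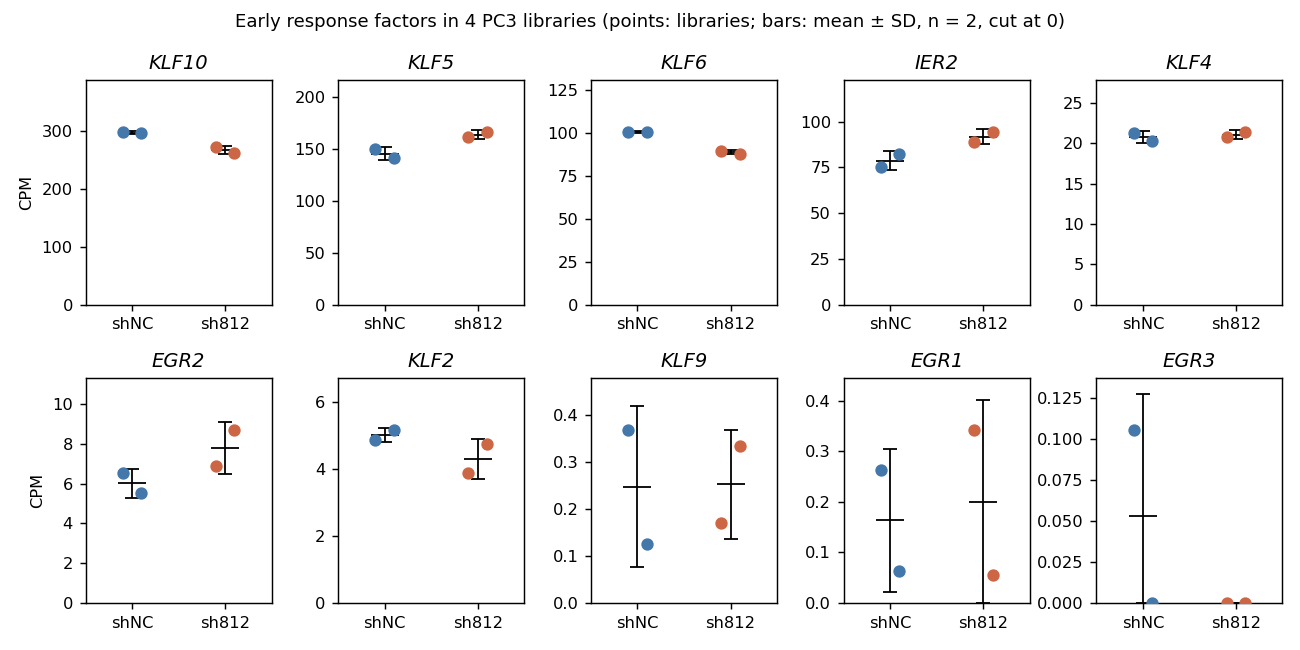
CPM of each gene in the 4 libraries, one panel per gene with its own linear axis from 0. Points are libraries, bars are mean ± SD (n = 2). IER2, KLF5 and EGR2 lie higher and KLF2, KLF6 and KLF10 lower in sh812 with no overlap, as 53.6% of all genes tested do in either direction. EGR1, EGR3 and KLF9 stay under 0.4 CPM.

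Knockdown went with small changes, and 1 gene of the set passed the test. Of the 10 genes, 8 passed the low-count filter. IER2 rose and none fell at an adjusted p under 0.05 in edgeR, against 10.8% of all genes tested called in either direction, 5.43% called higher and 5.42% called lower. At an unadjusted p under 0.05 there were 5 of the 8 (KLF5, EGR2 and IER2 higher, KLF6 and KLF10 lower), against 24.8% of all genes tested. DESeq2 called 0 of the 7 to which it gave an adjusted p, and with limma-voom IER2 was the single call. The median log2 fold change of the 8 was 0.011, and that of all genes tested was -0.0056. The 2 groups did not overlap in 6 of the 8 genes, 3 higher and 3 lower in sh812, and 53.6% of all genes tested had groups that did not overlap. In RNA from bulk cultures, a change in every cell and a change in the number of cells that express a gene cannot be told apart.

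IER2, a nuclear protein encoded by a gene induced early by growth factors, lies on chromosome 19 from 13150415 to 13154908 (GRCh38, GENCODE 29). It had 2845 and 2609 counts in shNC and 3117 and 3386 in sh812, or 75.0 and 82.5 CPM against 88.8 and 94.6 CPM. Both sh812 libraries lay above both controls, though shNC replicate 2 stood closer to sh812 replicate 1 than to its own replicate. The mean went from 78.8 ± 5.30 to 91.7 ± 4.12 CPM (SD, n = 2), a 1.17-fold rise with a 95% interval of 1.05 to 1.29 that is not adjusted for the number of genes (log2 fold change 0.22, SE 0.07, adjusted p = 0.0432 in edgeR). The call was lost in DESeq2 (adjusted p = 0.0562), with library size in place of TMM (adjusted p = 0.107 in edgeR), and without shNC replicate 1, sh812 replicate 1 or sh812 replicate 2 (adjusted p = 0.158, 0.148 and 0.426 in edgeR). An annotated antisense gene overlaps IER2 and had 0 counts in every library.

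KLF10, also known as TIEG1, is a repressor induced by TGF-beta, and lies on chromosome 8 from 102648779 to 102655902. It had the highest level of the set: 298.8 and 295.8 CPM in shNC and 272.1 and 262.5 CPM in sh812. The sh812 libraries were the lower ones, and each pair of replicates was close. On the log2 scale the difference was -0.15, with an SE of 0.06 (adjusted p = 0.0869 in edgeR), a fold of 0.899 with a 95% interval of 0.828 to 0.976, so it did not pass. It did pass, on the lower side, with library size alone (adjusted p = 0.0220 in edgeR). Without shNC replicate 1 or shNC replicate 2 the log2 fold change was -0.146 and -0.155, close to the -0.153 of all 4 libraries.

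KLF6, on chromosome 10 from 3775996 to 3785281, is expressed widely in epithelia. It was at 100.7 and 100.2 CPM in shNC and at 89.5 and 87.7 CPM in sh812. The difference between the groups was several times the gap between replicates, yet the fit shares its estimate of spread over genes and the log2 fold change of -0.18 (SE 0.06) had an adjusted p of 0.0744 in edgeR. The fold was 0.882 with a 95% interval of 0.804 to 0.968. It passed with library size alone and with a filter at a mean CPM of 1 (adjusted p = 0.0268 and 0.0487 in edgeR). Without shNC replicate 2 the log2 fold change stayed at -0.18. With each library's trend on transcript length removed it was -0.12, with an adjusted p of 0.240 in edgeR.

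KLF5, an activator of proliferation genes in epithelial cells, lies on chromosome 13 from 73054976 to 73077542. Its level was 149.8 and 140.9 CPM in shNC and 160.8 and 166.4 CPM in sh812, with both sh812 libraries the higher. The log2 fold change of 0.17 (SE 0.06) had an adjusted p of 0.0740 in edgeR, with a fold of 1.13 and a 95% interval of 1.03 to 1.23. It passed on the higher side with the length trend removed (adjusted p = 0.0224 in edgeR). Without shNC replicate 1 the log2 fold change was 0.22, and without shNC replicate 2 it was 0.13. IER2, KLF5, KLF6 and KLF10 thus lay close to the threshold, on either side of it depending on the processing.

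**Figure D2:**
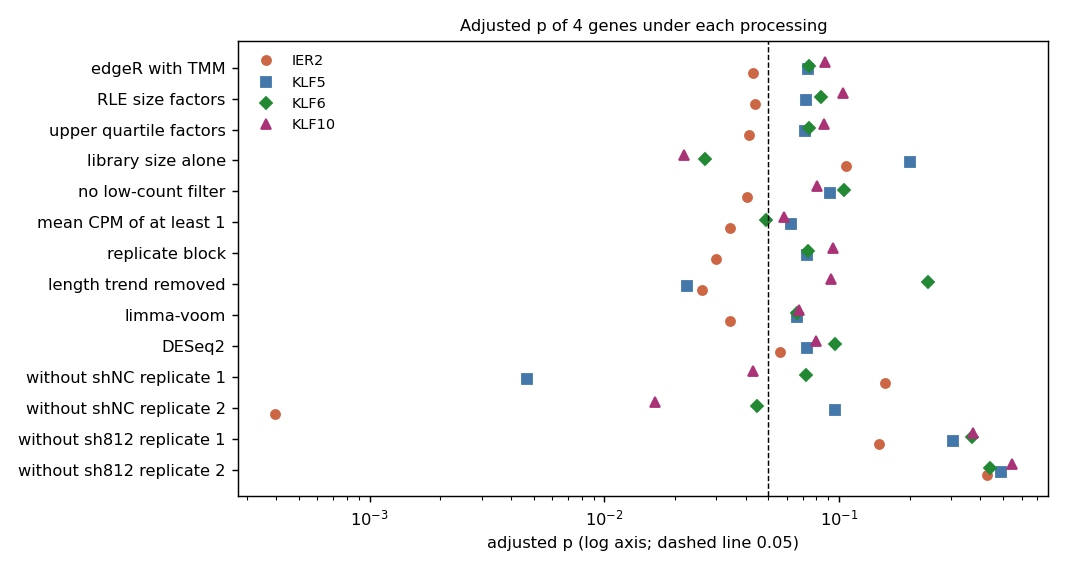
Adjusted p (log axis) of IER2, KLF5, KLF6 and KLF10 under each processing, with the threshold of 0.05 as a dashed line. IER2 is left of the line in edgeR with TMM at 0.0432 and the other genes are right of it, and the order changes with library size alone, where KLF10 is at 0.0220 and IER2 at 0.107.

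Ratios of counts within a library do not move with the scaling between libraries. These ratios were chosen after the values were seen. KLF5 over KLF10 was 0.501 and 0.476 in shNC and 0.591 and 0.634 in sh812, and IER2 over KLF6 was 0.745 and 0.823 against 0.992 and 1.08. KLF6 over KLF10 was 0.337 and 0.339 against 0.329 and 0.334, and IER2 over KLF5 was 0.501 and 0.586 against 0.552 and 0.569. So KLF5 and IER2 were higher relative to KLF6 and KLF10 in both sh812 libraries. This had to follow once KLF5 and IER2 lay higher and KLF6 and KLF10 lower in CPM without overlap, so it is no further support. KLF6 over KLF10 was slightly lower in both sh812 libraries, and IER2 over KLF5 overlapped between the groups. With 2 against 2 libraries an exact permutation test cannot go below a two-sided p of 0.333. KLF10 took 45.4% and 45.5% of the summed CPM of the 10 genes in shNC and 42.3% and 40.6% in sh812, and KLF5 took 22.8% and 21.7% against 25.0% and 25.7%. The summed CPM itself was 657.7 and 650.5 in shNC and 643.2 and 646.6 in sh812.

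KLF4, one of the reprogramming factors and a regulator of epithelial differentiation, lies on chromosome 9 from 107484852 to 107490482. The controls held 21.3 and 20.3 CPM and the knockdown libraries 20.7 and 21.5 CPM, so the groups overlapped. Its log2 fold change was 0.020 (SE 0.10, adjusted p = 0.937 in edgeR), with a fold of 1.01 and a 95% interval of 0.876 to 1.17, and its sign turned with library size alone (-0.025) and without shNC replicate 2 or sh812 replicate 2. KLF2, known from quiescent endothelium and T cells, lies on chromosome 19 from 16324817 to 16327874. It had 184 and 163 counts in shNC and 136 and 169 in sh812, or 4.85 and 5.15 CPM against 3.87 and 4.72 CPM. The sh812 libraries were the lower ones, but sh812 replicate 2 was close to the controls. The fitted log2 value was -0.22 with an SE of 0.19 (adjusted p = 0.535 in edgeR), and the fold interval was 0.655 to 1.13.

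KLF9, a glucocorticoid-induced repressor on chromosome 9 from 70384597 to 70414624, was barely detected. It had 14 and 4 counts in shNC and 6 and 12 in sh812, so each group held a high and a low library. Its log2 fold change was 0.0014 (SE 0.91, adjusted p = 1.00 in edgeR), and the fold interval of 0.273 to 3.67 shows how little this depth can tell.

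**Figure D3:**
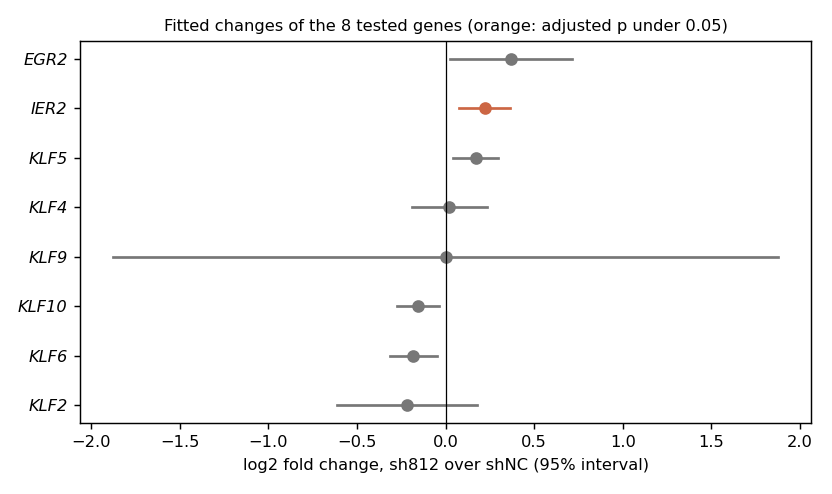
Fitted log2 fold change (sh812 over shNC) of the 8 tested genes with 95% intervals, orange where the adjusted p was under 0.05. IER2 at 0.22 is the single orange point, and KLF9 has the widest interval, from -1.87 to 1.88.

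The 3 EGR genes differed widely in level. EGR2, which drives myelination in Schwann cells and is also induced by growth factors, had 247 and 174 counts in shNC and 241 and 311 in sh812. In CPM these are 6.51 and 5.50 against 6.87 and 8.69, so both sh812 libraries were higher, sh812 replicate 1 by a small margin. The log2 fold change of 0.37 was the highest of the set, but with an SE of 0.17 its adjusted p was 0.166 in edgeR. The fold was 1.29 with a 95% interval of 1.02 to 1.64. Without sh812 replicate 2, the highest library, the log2 fold change was 0.19, and without sh812 replicate 1 it was 0.53. The annotated EGR2 gene spans 62811996 to 62919900 on chromosome 10.

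EGR1, the best known of these genes as a readout of growth factor signalling, lies on chromosome 5 from 138465490 to 138469315. It had 10 and 2 counts in shNC and 12 and 2 in sh812, or 0.264 and 0.0632 CPM against 0.342 and 0.0559 CPM. Both replicate 1 libraries held more than both replicate 2 libraries, and the groups overlapped. EGR3, on chromosome 8 from 22687659 to 22693302, had 4 counts in shNC replicate 1 and 0 in the other 3 libraries. There a count of 0 allows up to 0.0838 to 0.0949 CPM if counts are separate fragments, and more if both reads of a pair were counted. Neither passed the low-count filter. Tested without a filter, EGR1 was higher in sh812 by 0.24 on the log2 scale, far within its SE of 1.11 (adjusted p = 0.944 in edgeR). EGR3 was too close to the floor of 3 counts for a fold. An overlapping gene on the other strand of EGR3 had 0 to 6 counts. A difference in EGR1 or EGR3 was not detectable at this depth.

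The NAB corepressors of the EGR proteins were well expressed. NAB1 averaged 67.5 CPM in the controls and 73.2 CPM with sh812, a log2 difference of 0.12 (SE 0.07, adjusted p = 0.323 in edgeR). NAB2, itself an EGR target, was at 37.0 and 32.9 CPM, a log2 difference of -0.17 (SE 0.09, adjusted p = 0.267 in edgeR, and 0.0448 without shNC replicate 2). EGR4 had 0 counts in all 4 libraries. With WT1, whose zinc fingers are related to those of EGR1, 3 of these 4 genes were tested and 0 were called in edgeR, limma-voom or DESeq2, with 0 at an unadjusted p under 0.05.

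The other KLF genes also differed in level, but reached at most 11.0 CPM per kb, in KLF16. Of the 18 KLF genes, KLF10, KLF5 and KLF6 had the highest mean per kb, and together with KLF13 they made up most of the KLF counts: 37.9%, 20.8%, 12.7% and 9.89%. KLF14 and KLF18 were at 0 in every library. Of the 21 other KLF and SP genes, 13 were tested, 0 were called higher and 1 lower, with a median log2 fold change of -0.064. SP6, which takes part in ectodermal and tooth development, fell from 11.3 to 7.68 CPM, by 0.56 on the log2 scale (SE 0.14, adjusted p = 0.0121 in edgeR). Without sh812 replicate 2 its adjusted p was 0.187 in edgeR.

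**Figure D4:**
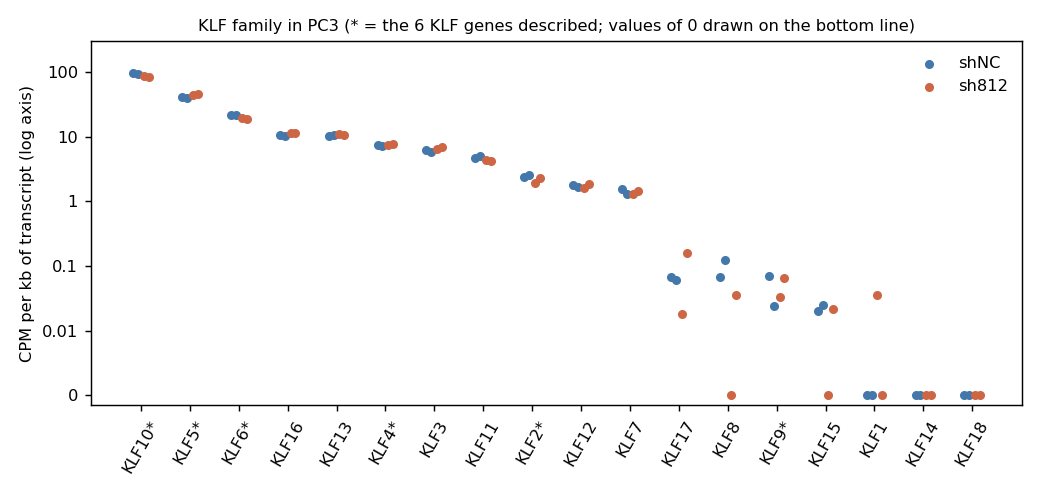
CPM per kb of transcript (log axis) of the 18 KLF genes, ordered by the mean of the 4 libraries, with values of 0 on the bottom line. KLF10 at 91.2 leads and KLF9 at 0.0484 lies among the nearly silent genes, and within each gene the 2 groups are close compared with the range between genes.

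Upstream factors and the genes induced beside these ones were read from the same fit. Among SRF, the ELK factors and the MRTF coactivators, 6 were tested, 0 were called higher and 1 lower, and the median log2 fold change was -0.060. ELK3, a ternary complex factor that can repress serum response elements, fell from 97.7 to 71.7 CPM (log2 fold change -0.45, SE 0.07, adjusted p = 0.000127 in edgeR). Of 9 ERK, ERK5 and MEF2 genes, 0 were called higher and 2 lower, with a median of -0.21. MEF2C fell from 26.1 to 17.1 CPM (log2 fold change -0.61, adjusted p = 0.000343 in edgeR) and MEF2D, both being factors that ERK5 acts on, fell from 75.4 to 63.1 CPM (-0.26, adjusted p = 0.0176 in edgeR). The MEF2D call was lost with the length trend removed (-0.18, adjusted p = 0.0847 in edgeR) and without sh812 replicate 1 or sh812 replicate 2 (adjusted p = 0.196 and 0.185 in edgeR).

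Of 19 other early response genes, all tested, 1 was called higher and 2 lower, with a median log2 fold change of -0.071. IER5, a relative of IER2 by sequence, rose from 55.7 to 68.3 CPM (log2 fold change 0.30, SE 0.07, adjusted p = 0.00932 in edgeR). CCN1, a secreted matricellular protein, fell from 316 to 235 CPM (-0.43, adjusted p = 3.57e-05 in edgeR) and SGK1, a kinase induced by serum and glucocorticoids, fell from 30.7 to 21.8 CPM (-0.49, adjusted p = 0.00232 in edgeR). The IER5 call was lost without sh812 replicate 1 or sh812 replicate 2 (adjusted p = 0.0697 and 0.171 in edgeR), and that of SGK1 without sh812 replicate 1 (adjusted p = 0.0935 in edgeR). FOS had 18 and 14 counts in shNC and 14 and 16 in sh812, or 0.204 CPM per kb on average, and ATF3 was at 39.2 and 34.9 CPM (log2 fold change -0.17, adjusted p = 0.239 in edgeR). FOS was thus low in both groups, though above KLF9, EGR1 and EGR3 per kb, and the part of culture handling in these levels was not tested.

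Among 7 genes that respond to glucocorticoids, 6 were tested and SGK1, counted above too, was the single call, with a median log2 fold change of -0.12. Among 8 genes of the early TGF-beta response, 0 were called higher and 4 lower, with a median of -0.22. SKIL, which restrains SMAD factors, fell from 76.7 to 60.1 CPM (-0.35, adjusted p = 0.00241 in edgeR), and the matricellular gene CCN2 from 34.2 to 26.0 CPM (-0.39, adjusted p = 0.00590 in edgeR). The inhibitory SMAD7, named after its values were seen, fell from 4.53 to 2.54 CPM (-0.84, adjusted p = 0.0156 in edgeR). The SMAD7 call was lost without shNC replicate 1, sh812 replicate 1 or sh812 replicate 2 (adjusted p = 0.105, 0.0717 and 0.0770 in edgeR). Those of SKIL and CCN2 were lost without sh812 replicate 1 (adjusted p = 0.0540 and 0.107 in edgeR). KLF10, which TGF-beta also induces, was lower by a smaller factor and did not pass. A link between these values and TGF-beta signalling was not tested. Of 8 cofactors and turnover factors of KLF proteins, 0 were called in edgeR and 3 were lower at an unadjusted p under 0.05, with a median of -0.088. In each of these 8 lists limma-voom and DESeq2 called as many genes in each direction as edgeR did. With TMM, RLE or upper quartile factors or library size alone, no median of these 8 lists changed sign. The median of the early response factors lay between KLF9 and KLF4, and with library size alone it was negative as they were (-0.046 and -0.025). With a library left out, the median of the other KLF and SP genes turned from -0.064 to 0.0090 without shNC replicate 1. That of the EGR4, WT1 and NAB genes went from 0.12 to 0.0041 without sh812 replicate 1 and kept its sign. Apart from the other KLF and SP genes, no median of these 8 lists changed sign. The median of the early response factors was not computed for these fits. By comparison, 5.43% and 5.42% of all genes tested were called higher and lower. The lists were chosen with earlier results of these data known, so a list count above these shares cannot be read as an excess.

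**Figure D5:**
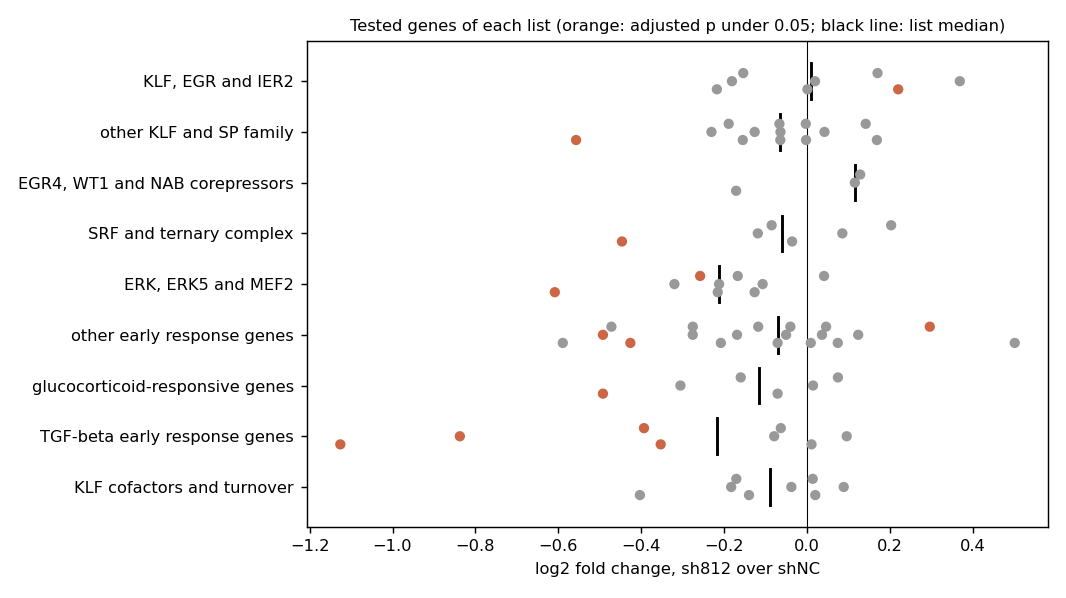
Log2 fold change (sh812 over shNC) of each tested gene by list, orange where the adjusted p was under 0.05, with the list median as a black line. The early response factors centre on 0.011 with IER2 in orange, and the TGF-beta list has its median at -0.22.

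The 10 genes have few exons, a feature that their choice did not use. Their representative GENCODE 29 transcripts had 1 exon (IER2) to 5 exons (KLF4). The median was 2.5, or 3.5 over those of the 10 that were tested, against a median of 9 in 13237 protein-coding genes tested. Their transcripts were not short: median length was 3118 bases (3032.5 over those tested) against 3216. The median 3′ untranslated region was 1294 bases (1282 over those tested) against 1107. The AU-rich pentamer ATTTA, found in unstable messages, occurred in the 3′ untranslated region of 9 of the 10, and 29.7% of the coding genes tested had none. The median was 3 copies against 2 in those coding genes, with 8 copies in KLF9, 6 in KLF6, 5 in KLF5 and 0 in IER2. These counts are not scaled to length, and the regions of KLF9 and KLF6 were long, at 3179 and 3543 bases. GGACT, the most common form of the N6-methyladenosine consensus, had a median of 0.829 per kb over the 10 genes. It was 1.19 over those tested, against 0.932 over the coding genes tested. The most copies were 8 in KLF6 and 7 in IER2, or 1.72 and 2.39 per kb. GGACT was absent from the transcripts of KLF10 and of EGR1, which was not tested, and from 8.45% of those coding genes tested. IER2 and KLF6, the genes with the most copies, had log2 fold changes of 0.22 and -0.18, and KLF6 was not called. Whether copies of the motif go with a change was not tested. A motif is a count of letters, and methylation was not measured here.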

How the data were processed

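Poly(A) RNA from 4 PC3 libraries, 2 labelled shNC and 2 labelled sh812, was sequenced from dUTP strand-marked libraries as paired reads, per the labels' protocols. The authors deposited raw counts per gene, whole numbers with totals of 31450648 to 37041330. The submitters' processing notes name fastp, STAR 2.7.1a, featureCounts, DESeq2 and the build hg38, with no roles. The annotation release and strand setting are not given in the sources used here. Groups came from the sample titles.

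The test was that of edgeR 4.0.16, run under R 4.3.3 (low-count filter filterByExpr, TMM, glmQLFit and glmQLFTest, 4 libraries, no covariate), with Benjamini-Hochberg adjustment over all 16802 genes tested and a call at an adjusted p under 0.05. The prior count was 0.125, SEs come from the F statistic, and 95% intervals use its degrees of freedom. CPM use TMM-scaled totals. The floor of 3 counts and all intervals cover the error of this fit or counting only. Levels per kb use 1 appris principal transcript per gene from GENCODE 29 (GRCh38), and promoters come from RefSeq (GRCh38.p14). The fit was tested on simulated data. Replicates of a group differed beyond sampling noise (chi-square per gene 8.43 in shNC and 4.51 in sh812).

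The members and gene lists were chosen with earlier results of these data known. The text names METTL3, the 10 members, NAB1, NAB2, FOS and ATF3, and the 3 called genes with the smallest p in each other list. SMAD7 and the markers are outside this rule or from a marker list. Some genes that the rule or the marker list names are not reported here. Alternatives were RLE and upper quartile factors, library size alone, no filter, a mean CPM of 1, limma-voom 3.58.1, DESeq2 1.42.0, the replicate block, removal of the length trend (lowess, span 0.3), a prior count of 2, and each library left out.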

Additional observations from a re-analysis of the deposited data

How the results depend on the processing

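With library size alone, 561 genes were called higher and 1328 lower (29.7% higher against 50.1% with TMM), and the median of all genes tested was -0.050. In that setting 0 of the early response factors were called higher and 2 lower (KLF6 and KLF10), against 1 and 0. DESeq2 called 0 higher, the removed length trend 2 (IER2 and KLF5), and a mean CPM of at least 1 gave 1 lower (KLF6). The cause was not tested. KLF4 and KLF9, never called, changed sign with library size alone (-0.025 and -0.046) and without single libraries. Without each library in turn, where the lone library of a group is assumed to vary like the other group, 261 to 1703 genes were called higher and 326 to 1549 lower, and 0 to 1 of the factors higher and 0 to 2 lower. The log2 fold change of IER2 was 0.15 to 0.30 when a library was left out. Of 13 alternatives other than the prior count, which changed no call, IER2 was called in 8, ELK3, MEF2C, CCN1 and METTL3 in all 13, SP6, SGK1, SKIL and CCN2 in 12, IER5 in 11, and MEF2D and SMAD7 in 10, each with its sign kept. NAB2 was called in 1. The replicate numbers showed no sign of pairing (correlation of deviations 0.0164 over 16802 genes). The replicate block gave 1003 higher and 998 lower calls, IER2 stayed at 0.22, and no call named here changed. DESeq2 gave no adjusted p for KLF9 and FOS. Low counts limit EGR1, EGR3, KLF9 and FOS.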
